A study of Mus musculus with 11 samples.

Results

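The wider autosomal sonication peaks are 479 regions of the mouse genome at which the authors' list of sonication peaks for GFP-tagged Smchd1 reached a width of 450 bp or more. They were selected on that measured width and on position: chromosomes 1 to 19, without the 23 peaks of the same width class that overlapped one of the 4 Hox clusters. They made up 29.1% of the 1646 autosomal peaks, in a list of 2196 peaks on all chromosomes. Their width is therefore a description and is not tested here. The list gives positions without heights, so a wider peak is not known to be a stronger one.

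Anti-GFP immunoprecipitation recovered the tagged Smchd1 protein from formaldehyde-fixed neural stem cell lines, which had been derived from embryos of C57BL/6 mice and either carried the Smchd1 GFP/GFP knock-in or were wild-type (Smchd1 +/+). Wild-type cells lack the tag, so their pull-down measures what the antibody brings down without it. In the sonication experiment, chromatin in non-ionic detergent was sonicated for 30 min, and the 6 libraries, all female, comprised 2 of whole cell extract, 2 wild-type and 2 knock-in. In the second experiment, chromatin was cut with micrococcal nuclease (MNase), and the 5 libraries were 1 male and 1 female knock-in, 1 male and 1 female wild-type and 1 female whole cell extract. The labels give no genotype for the whole cell extracts. By the stated design, sonication served to test binding to the inactive X and MNase to assess autosomal binding, so the peaks described here come from the experiment that was aimed at another chromosome. The experiments differed in fragmentation and in the sex of the cells, and these cannot be told apart. Each experiment was deposited as 1 pooled list, so there is no value per library, no depth and no spread between replicates for any peak. Tests below compare groups of peaks within a list, and peaks are not biological replicates.

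Smchd1 is a noncanonical member of the structural maintenance of chromosomes (SMC) family, with a hinge domain that binds nucleic acids and an ATPase domain. It is known for maintaining silence on the inactive X chromosome, at several imprinted gene clusters and at the clustered protocadherins, and it affects Hox gene expression in the embryo. In neural stem cells, which divide and give rise to neurons and glia, many regulators of other lineages and genes of mature neurons are held in a repressed state, often at promoters rich in CG pairs.

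At 7 of these peaks the region held a transcription start listed for a coding gene. The promoter windows of 5 of these 7 genes are shown. Of the 5, 4 had an MNase peak at the same place, 3 of those 4 were rich in CG pairs, and the last had neither. Fgf12, which is not shown, had as many CG pairs as Msx1 and no MNase peak. Among the 7, CG-rich windows and MNase peaks thus did not always go together. Each window runs from 250 bases before to 50 bases after the start, 5′ to 3′ in the direction of the gene, with CG pairs in capitals, from RefSeq sequence of GRCm38.p6, the assembly that mm10 names. The windows are chr2:143545883-143546182 on the plus strand for Pcsk2, chr5:37824536-37824835 on the minus strand for Msx1, chr12:61522917-61523216 on the plus strand for Lrfn5, chr11:11462370-11462669 on the minus strand for Zpbp and chr11:114989837-114990136 on the minus strand for Cd300ld.
Pcsk2: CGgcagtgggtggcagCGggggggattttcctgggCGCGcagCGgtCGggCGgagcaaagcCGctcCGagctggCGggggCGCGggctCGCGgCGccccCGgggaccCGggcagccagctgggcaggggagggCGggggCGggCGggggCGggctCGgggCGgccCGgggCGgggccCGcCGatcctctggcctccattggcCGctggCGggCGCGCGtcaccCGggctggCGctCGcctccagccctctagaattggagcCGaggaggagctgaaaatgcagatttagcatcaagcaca
Msx1: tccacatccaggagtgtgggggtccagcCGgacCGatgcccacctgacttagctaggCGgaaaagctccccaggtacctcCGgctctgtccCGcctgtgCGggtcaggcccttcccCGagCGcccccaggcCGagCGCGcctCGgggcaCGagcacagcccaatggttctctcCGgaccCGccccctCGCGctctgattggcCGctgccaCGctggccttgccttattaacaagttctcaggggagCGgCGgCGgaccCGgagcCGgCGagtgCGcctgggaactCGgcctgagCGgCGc
Lrfn5: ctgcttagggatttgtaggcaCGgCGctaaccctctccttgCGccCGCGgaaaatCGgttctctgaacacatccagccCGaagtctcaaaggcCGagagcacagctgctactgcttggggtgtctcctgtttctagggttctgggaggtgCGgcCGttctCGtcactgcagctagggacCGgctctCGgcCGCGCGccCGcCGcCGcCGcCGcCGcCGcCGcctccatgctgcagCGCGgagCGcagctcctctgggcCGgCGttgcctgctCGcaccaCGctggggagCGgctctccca
Zpbp: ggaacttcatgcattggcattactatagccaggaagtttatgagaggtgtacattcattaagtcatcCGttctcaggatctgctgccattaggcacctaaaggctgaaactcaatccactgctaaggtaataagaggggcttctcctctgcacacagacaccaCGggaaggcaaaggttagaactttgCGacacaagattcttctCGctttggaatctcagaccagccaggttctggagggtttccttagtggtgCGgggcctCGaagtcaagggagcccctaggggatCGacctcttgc
Cd300ld: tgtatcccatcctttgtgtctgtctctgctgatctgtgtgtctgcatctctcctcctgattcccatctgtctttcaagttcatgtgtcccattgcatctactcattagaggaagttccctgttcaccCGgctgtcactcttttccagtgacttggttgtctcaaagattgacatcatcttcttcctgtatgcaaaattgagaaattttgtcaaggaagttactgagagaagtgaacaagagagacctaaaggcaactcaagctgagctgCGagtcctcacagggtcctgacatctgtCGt

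Pcsk2 encodes prohormone convertase 2, which cuts peptide hormone precursors in neurons and endocrine cells, and its window held 36 CG pairs. Lrfn5, a synaptic adhesion gene, had 32 in its window, and Msx1, a homeobox gene of craniofacial and neural tube development, had 29. Zpbp, a gene of the sperm acrosome, had 7, and Cd300ld, a receptor gene of myeloid cells, had 3. Over all 31396 autosomal promoter windows of the same length, non-coding genes included, the median was 7, against 14 for coding genes alone. Of the 31396, 94.8% held at least 1 CG pair, which reads the same on both strands. As many pairs as Pcsk2 had were found in 6.44% of them, as many as Lrfn5 in 9.83%, as many as Msx1 in 13.3% and as many as Cd300ld in 77.0%. The remaining coding windows touched were those of Fgf12, an intracellular growth factor homologue with 29 pairs, and the olfactory receptor gene Olfr541 with 1, and neither had an MNase peak. All 300 bases of the window lay in the peak for Pcsk2, Msx1, Lrfn5 and Zpbp, and 286 of them for Cd300ld.

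CG content was also counted in the wider neighbourhood of starts. The 29 coding promoter windows with a start within 5 kb of one of the 479 peaks had a median of 15 CG pairs, and 41.4% had 20 or more. Across all 20085 autosomal coding windows the median was 14, and 37.1% reached 20. Around the autosomal sonication peaks of the smallest width, 300 bp, 43 windows had a median of 4 and 20.9% reached 20. Around autosomal MNase peaks outside the Hox clusters, 588 windows had a median of 20 and 50.7% reached 20. Windows within 5 kb of the wider peaks were thus close to coding promoters in general. Within 50 kb, 339 windows near the wider peaks had a median of 8 and 32.4% reached 20. Near the smallest peaks, 552 windows had a median of 8 and 30.8% reached 20, so at this range both were below coding windows as a whole. These values are given without a test. The promoter table covered 80.0% of coding genes and no gene on chromosome 18. Coding genes on other autosomes were missing from it too. Counts of starts and distances to them therefore hold for listed starts only.

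Widths fell steeply from the threshold. Peak positions lie on a grid of 150 bp, and 319 of the 479 peaks had the smallest width admitted, 450 bp. A further 111 measured 600 bp, 27 measured 750 bp and 12 measured 900 bp, and 10 measured 1050 bp or more. Just outside the threshold were the 1144 autosomal peaks of 300 bp, the smallest width in the list, which form the comparison group below. The mean width was 530 bp ± 153 (SD, 479 peaks), and together the peaks covered 253.65 kb. Those of 450 and 600 bp made up 89.8% of all.

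The wider peaks coincided with MNase peaks far more often than the smallest peaks did. Of the 479, 23 overlapped an MNase peak by at least 1 bp, a share of 4.80% (95% Wilson interval 3.22% to 7.10%). Of the 1144 peaks of 300 bp, 3 did so, or 0.262% (0.0892% to 0.768%). The odds ratio was 19.2 (Fisher's exact test, two-sided, p = 4.41e-10; adjusted p = 1.77e-09 over 4 comparisons). MNase peaks covered 0.0729% of the autosomal length. With peaks reduced to their midpoints, which takes out their difference in length, the odds ratio was 17.4. Some of the 23 are neighbours and not independent, so the p-value is too small, and merged within 100 kb they formed 21 sites on 10 autosomes.

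This overlap rose with width. At 450 bp, 2 of 319 peaks met an MNase peak (0.627%, 0.172% to 2.26%), and the difference from the 300 bp peaks did not pass Fisher's exact test (odds ratio 2.40, adjusted p = 0.429). At 600 bp it was 3 of 111 (2.70%, 0.923% to 7.65%), and at 750 bp 6 of 27 (22.2%, 10.6% to 40.8%). At 900 bp, 4 of 12 overlapped (33.3%, 13.8% to 60.9%), and of the 10 peaks of 1050 bp or more, 8 did (80.0%, 49.0% to 94.3%). The 49 peaks of at least 750 bp therefore held 18 of the 23 shared sites, and the other 430 held 5. For comparison, all 23 Hox peaks left out overlapped an MNase peak. None of the 230 wider peaks on the X did, but the MNase list has only 10 peaks there, so few overlaps were possible.

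**Figure D1:**
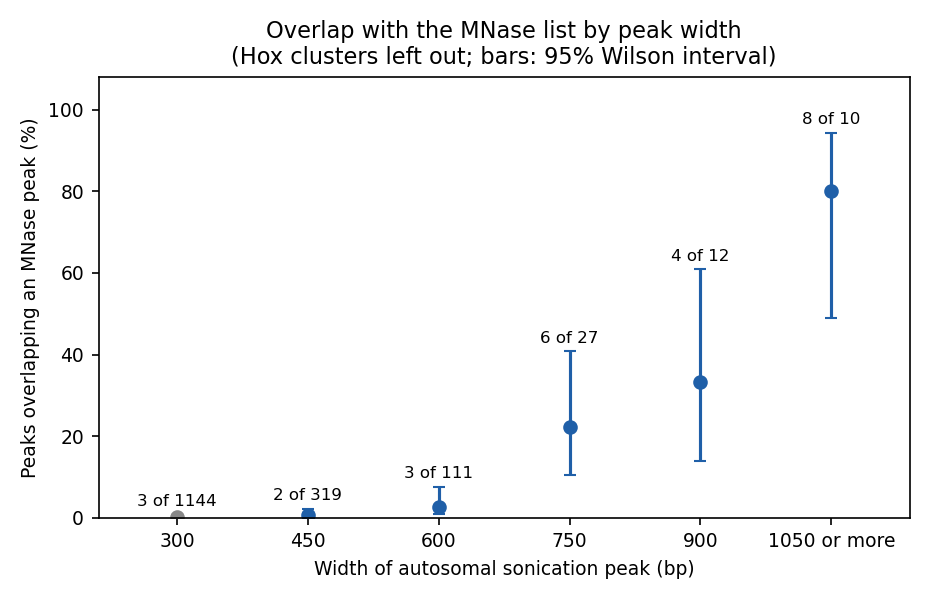
Percent of autosomal sonication peaks that overlap an MNase peak (vertical axis) against the width of the sonication peak in bp (horizontal axis), Hox clusters left out; points are shares, bars 95% Wilson intervals, and grey marks the 300 bp comparison peaks. The share stays below 3% up to 600 bp and reaches 80% at 1050 bp or more, where only 10 peaks are counted.

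Seen from the MNase list, the shared sites were few but wide. They took in 23 of its 2669 autosomal peaks outside the Hox clusters (0.862%). Those 23 had a median width of 1200 bp, from 300 to 7950 bp, against 450 bp for the other 2646. A width of 900 bp or more was reached by 15 of the 23 and by 11.1% of the others. Longer MNase peaks have more room to be overlapped, and the part of their length was not tested. Wholly inside the MNase signal lay 10 of the 23 sonication peaks, and the others extended past it. Within 5 kb, without overlap being required, 28 of the 479 wider peaks (5.85%) and 13 of the 1144 smallest (1.14%) had an MNase peak. These counts include the 23 wider and 3 smallest peaks that overlapped one, so most of the wider count is the overlap itself. The median distance to the nearest MNase peak was similar, 387 kb for wider and 405 kb for smallest peaks. Closeness beyond direct overlap was not tested.

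Of the 16 coding genes with a shared peak within 5 kb, 3 were on the list of homeobox genes outside the Hox clusters (Msx1, Irx2 and Evx2) and 2 on that of other developmental transcription factors (Nr2f2 and Tfap2a). Of the 1147 coding genes with an MNase peak within 5 kb, these lists held 43 and 35. The lists have 111 and 77 genes, out of 20560 autosomal coding genes. The Msx1 peak, 1200 bp at chr5:37823851-37825050, covered the start shown above and lay inside an MNase peak of 1950 bp. Irx2, an Iroquois homeobox gene, had a peak of 1350 bp at chr13:72639001-72640350, 4805 bp from the gene, and 1050 bp of it were shared with an MNase peak of 1200 bp. At Nr2f2, which encodes the orphan nuclear receptor COUP-TFII, a peak of 1200 bp at chr7:70361101-70362300 lay in the gene, 4446 bp downstream of a start, within the widest shared MNase peak, 7950 bp. A second, of 900 bp, lay 16.5 kb from Nr2f2 in the long non-coding gene Gm29683, and another, of 450 bp, had Nr2f2 as its nearest coding gene at 385 kb and the small nucleolar RNA gene Gm24120 at 8.10 kb. Evx2, a homeobox gene next to the HoxD cluster, had a peak of 900 bp at chr2:74661301-74662200, 1744 bp upstream of a start, under an MNase peak of 6450 bp. This peak ended 6.02 kb before the first base of the cluster and so was kept. Tfap2a, the AP-2α gene of neural crest and skin, had a peak of 900 bp at chr13:40730101-40731000, 2795 bp downstream of a start, under an MNase peak of 3150 bp.

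Among imprinted genes, 2 of 51 had a shared peak within 5 kb, Grb10 and Snrpn, and 11 of 51 (21.6%) had an MNase peak. Over all 20560 autosomal coding genes, 16 had a shared peak and 5.58% had an MNase peak. Grb10, an adaptor that restrains insulin receptor signalling and is expressed from one parental allele according to tissue, had a peak of 1050 bp at chr11:12025651-12026700 inside the gene, 1271 bp downstream of a start. It shared 750 bp with an MNase peak of 900 bp. Another 4 shared peaks lay in a row on chromosome 7, between 60243751 and 60622950, around Snrpn, which encodes a splicing protein and is expressed from the paternal allele. Their widths were 750, 750, 750 and 600 bp, with gaps of 146.4, 100.3 and 129.6 kb between them. The first and second lay in the long annotated span of Snrpn, the next 41.8 kb and the last 172 kb beyond it. Their MNase peaks measured 1500, 1350, 1200 and 600 bp. No peak of 300 bp lay between the 4, and no other stretch of the autosomes chained more than 3 wider peaks within 200 kb of each other.

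The remaining sites follow, led by the widest. Of the genes named at them, Celf4 and Lrfn5 are on the list of synaptic and adhesion genes of long span. On that list, 2 of 94 genes had a shared peak within 5 kb. The widest of all 479 peaks, 1800 bp at chr2:143545201-143547000, covered the start of Pcsk2 and lay inside an MNase peak of 2550 bp. Celf4, a neuronal RNA-binding protein gene, had a peak of 1200 bp that touched MNase peaks of 1350 and 1650 bp. Xkr4, of the XK family of membrane proteins, had adjoining peaks of 1050 and 900 bp at one end of its span, which shared 750 and 300 bp with 1 MNase peak of 1050 bp. Ralyl, an RNA-binding protein gene, and Kctd16, an auxiliary subunit of GABA-B receptors, had peaks of 750 bp with MNase peaks of 1350 and 600 bp. Cacng2, the stargazin gene of AMPA receptor complexes, had a peak of 600 bp, 421 bp upstream of a start, inside an MNase peak of 750 bp. The Lrfn5 start was covered by a peak of 450 bp, of which 300 bp were shared. Frmd4a, a cell polarity scaffold gene, was 52.9 kb from a shared peak of 600 bp. The remaining sites were Zpbp, 1050 bp wide inside an MNase peak of 1500 bp, and a peak of 750 bp, 16.9 kb from the predicted gene Gm40035. In all, 16 of the 23 shared peaks overlapped a coding gene.

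**Figure D2:**
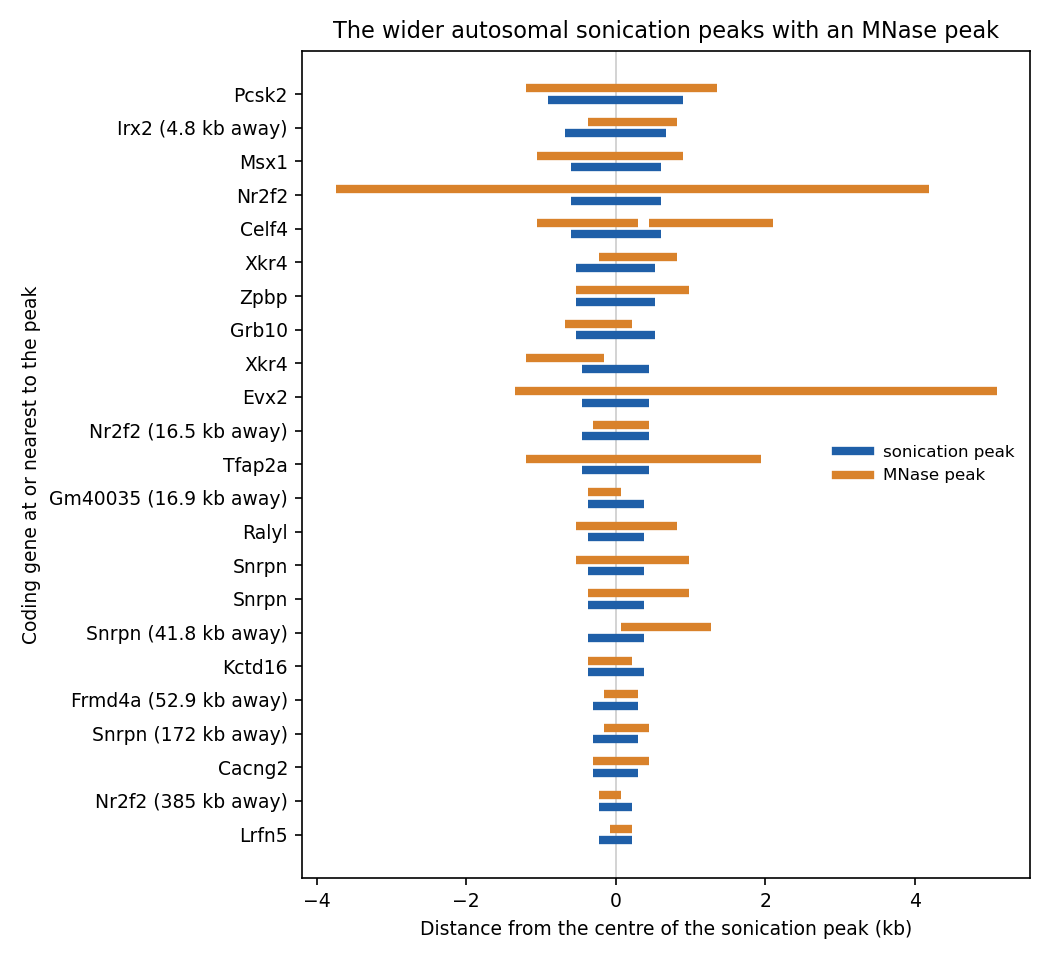
The 23 wider sonication peaks that overlap an MNase peak, 1 line each from widest to narrowest, with the coding gene at or nearest to it; the horizontal axis is distance in kb from the centre of the sonication peak (blue), and MNase peaks are orange. The MNase peaks at Nr2f2 (7950 bp) and Evx2 (6450 bp) extend far beyond the sonication peak, and at Xkr4 both lines show the same MNase peak.

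Some of the widest peaks had no MNase partner. Of the 22 peaks of 900 bp or more, 12 were shared and 10 were not. The largest of the latter measured 1500 bp, at chr4:147525751-147527250. It lay 411 bp from the pseudogene Gm13141 and 9.69 kb from Zfp982, a zinc finger gene of a tandem array, and the nearest MNase peak was 81.2 kb away. Trim35, an E3 ubiquitin ligase gene, held a peak of 1050 bp with the nearest MNase peak 824 kb away. Pcdh8, a neural protocadherin gene outside the clusters, held one of 900 bp, 1012 bp downstream of its start, and here an MNase peak lay 601 bp away without overlap. St3gal4, a sialyltransferase gene, and Syk, a tyrosine kinase gene of blood cells, also held peaks of 900 bp. Others of that width lay 18.8 kb from Nr1h4, the bile acid receptor gene, and in the non-coding gene 8030451A03Rik, 43036 bp from the extracellular matrix gene Tnc. Peaks of that width also lay in the non-coding gene Gm32758, 32.6 kb from Tex44, 13.3 kb from Gm40904 and, on chromosome 2, more than 100 kb from any gene. Of the 27 peaks of 750 bp, the first 3 in chromosome order had no MNase partner and lay in Adhfe1, an alcohol dehydrogenase gene, in Etl4 and 44.2 kb from Gm29726.

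Coding gene starts were more often near the widest peaks than near the smallest. Within 5 kb of a start lay 25 of the 458 wider peaks on the 18 autosomes with annotated starts (5.46%, 3.72% to 7.93%) and 38 of 1091 smallest peaks (3.48%, 2.55% to 4.74%). This difference did not pass Fisher's exact test (odds ratio 1.60, p = 0.0898, adjusted p = 0.12). By width the share was 10 of 306 at 450 bp (3.27%), 4 of 105 at 600 bp (3.81%) and 11 of 47 at 750 bp or more (23.4%, 13.6% to 37.2%). With only the last class set against the smallest peaks, the odds ratio was 8.47 (Fisher's exact test, adjusted p = 3.27e-06), while for 450 bp alone it was 0.936. Without peaks at an MNase peak, starts within 5 kb were found for 16 of 437 wider and 38 of 1088 smallest peaks, with an odds ratio of 1.05 (Fisher's exact test, adjusted p = 0.879). A start inside the peak itself was found for 7 wider peaks (1.53%) and 2 smallest ones (0.183%). Longer peaks have more room to hold a start, and the part of peak length was not tested. Within 1 kb, a start was found for 9 of 458 wider and 7 of 1091 smallest peaks. That difference did not pass Fisher's exact test (odds ratio 3.10, adjusted p = 0.0526).

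At a longer range the wider peaks as a whole lay closer to genes. A coding start lay within 50 kb of 173 of 458 wider peaks (37.8%) and 300 of 1091 smallest peaks (27.5%), an odds ratio of 1.60 (Fisher's exact test, p = 8.28e-05; adjusted p = 0.000166). This distance was an alternative to 5 kb, and the adjustment does not count the alternatives tried. Here the 450 bp peaks contributed too, with 113 of 306 (36.9%), beside 34 of 105 at 600 bp (32.4%) and 26 of 47 at 750 bp or more (55.3%). With peaks at an MNase peak left out, the odds ratio at 50 kb was 1.52 (Fisher's exact test, adjusted p = 0.00108). The median distance to a listed start was 95.2 kb for wider and 170 kb for smallest peaks. Missing starts lengthen such distances: for the peak of 1050 bp that overlaps Xkr4, the nearest listed start was that of Crisp4, 14474 kb away. Regions poor in genes remained common: 132 wider peaks (27.6%) lay more than 100 kb from any coding gene, against 430 smallest peaks (37.6%), and 29 lay more than 500 kb away.

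Coding gene bodies were overlapped by 193 of the 479 wider peaks (40.3%, 36.0% to 44.7%) and 402 of the 1144 smallest (35.1%, 32.4% to 38.0%). That difference did not pass Fisher's exact test (odds ratio 1.25, p = 0.0548, adjusted p = 0.110). At 750 bp or more, 30 of 49 overlapped a coding gene (61.2%, 47.2% to 73.6%), with an odds ratio of 2.91 (Fisher's exact test, adjusted p = 0.000493), whereas 450 bp (38.2%) and 600 bp peaks (36.9%) were close to the smallest ones. Another 40 overlapped only a non-coding gene or pseudogene, and 246 overlapped no annotated gene. The 184 coding genes overlapped were long, with a median span of 174 kb, where all coding genes had 17.6 kb. Hosts of the smallest peaks were as long, with a median of 184 kb over 361 genes. The part of gene length in these counts was not tested.

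**Figure D3:**
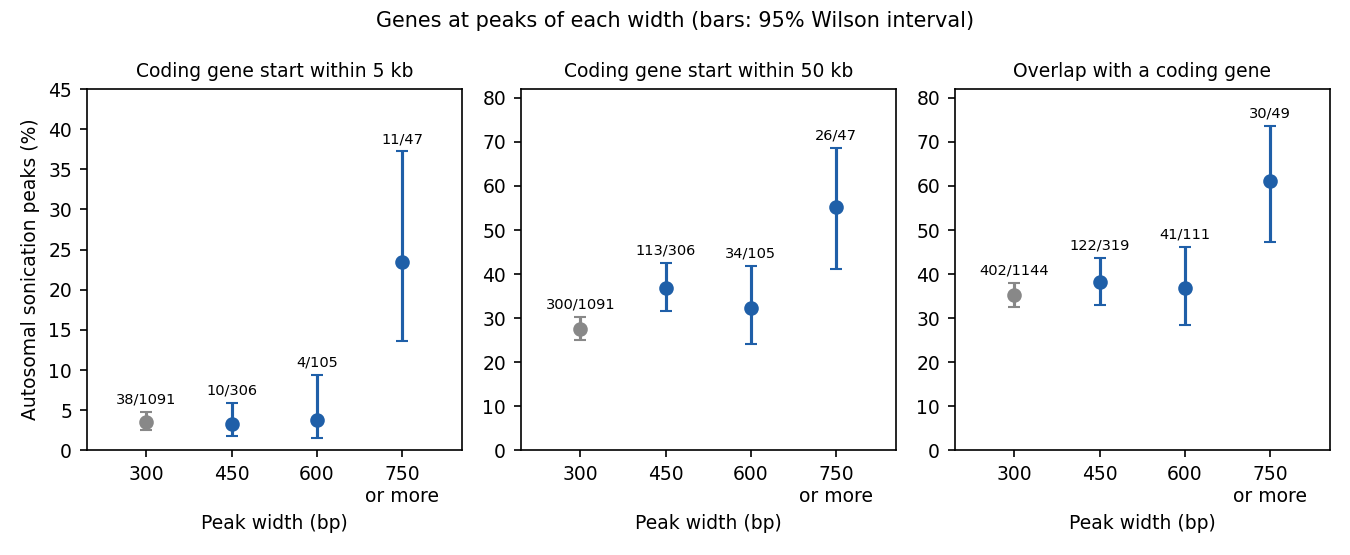
Percent of autosomal sonication peaks (vertical axes) with a coding gene start within 5 kb, with one within 50 kb, or overlapping a coding gene, by peak width in bp (horizontal axes); bars are 95% Wilson intervals, and grey marks the 300 bp comparison peaks. For a start within 5 kb, peaks of 450 and 600 bp sit at 3.27% and 3.81%, beside 3.48% at 300 bp, and those of 750 bp or more at 23.4%.

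Counted by gene, 205 of 20560 autosomal coding genes had a wider peak within 5 kb, a background of 0.997%. The smallest peaks were within 5 kb of 1.99% of coding genes and MNase peaks within 5 kb of 5.58%. Homeobox genes outside the Hox clusters had a wider peak at 4 of 111 members (3.60%), Irx2, Msx1, Evx2 and Cux2, the last a homeobox gene of upper cortical layers with a peak of 750 bp. No member of this list had a smallest peak, and 43 had an MNase peak. Other developmental transcription factors had 3 of 77 (3.90%), Nr2f2, Tfap2a and the gliogenesis factor Nfia, with 1 near a smallest peak and 35 near an MNase peak. Nfia, with a peak of 450 bp, was also the single one of 39 neural stem cell and radial glia genes (2.56%). Imprinted genes had 2 of 51 (3.92%), Grb10 and Snrpn, and the smallest peaks also touched 2. The 28 housekeeping genes and the 57 clustered protocadherins had none, and of these 1 and 14 had an MNase peak. These counts are small, and all of these lists describe the members without a test.

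Synaptic and adhesion genes of long span had the largest count, 17 of 94 (18.1%). Celf4 had the widest peak of these. Next came Immp2l, a mitochondrial peptidase gene, with 750 bp, and Cdh2 (N-cadherin) and Cntn5 (a contactin) with 600 bp each. The smallest peaks touched more of the list, 31 of 94, and MNase peaks 50. Its genes had a median span of 911 kb, and per Mb of gene and 5 kb flanks they had 0.235 wider peaks, against 0.180 for all coding genes. The part of gene length in this count was not tested. Neuronal channels and transmitter receptors had 2 of 63 (3.17%), the calcium channel subunit gene Cacna2d3 and the potassium channel gene Kcnd2, beside 9 near a smallest peak. Their median span was 280 kb, and per Mb they had 0.0915 wider peaks, below the 0.180 of all coding genes.

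Of the tandem gene families, zinc finger genes were near the background of 0.997% within 5 kb and the others below it. Zinc finger genes had 5 of 388 (1.29%), Zfp229, Zfp760, Zfp78, Zfp936 and Zfp982, each with a peak of 450 bp. Olfactory receptor genes had 2 of 1103 (0.181%), Olfr541 and Olfr884, vomeronasal receptor genes 0 of 351, and tandem enzyme and protease families 1 of 271 (0.369%), the cytochrome gene Cyp3a44. The smallest peaks touched 7, 9, 4 and 10 genes of these lists. In each of the 12 lists, and over all coding genes, the median number of wider peaks per gene was 0. Within 50 kb the order differed: zinc finger genes had 4.38%, olfactory 3.26% and vomeronasal receptor genes 2.56%, against 2.38% of all coding genes. Tandem enzyme and protease families had 1.85%. Olfactory and vomeronasal receptor genes are short, with median spans of 0.951 and 0.96 kb. Per Mb of gene and 5 kb flanks, zinc finger genes had 0.293 wider peaks and olfactory receptor genes 0.152, against 0.180 for all coding genes. Vomeronasal receptor genes had 0 per Mb, and tandem enzyme and protease families had 0.0972. The part of gene length in these shares was not tested.

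**Figure D4:**
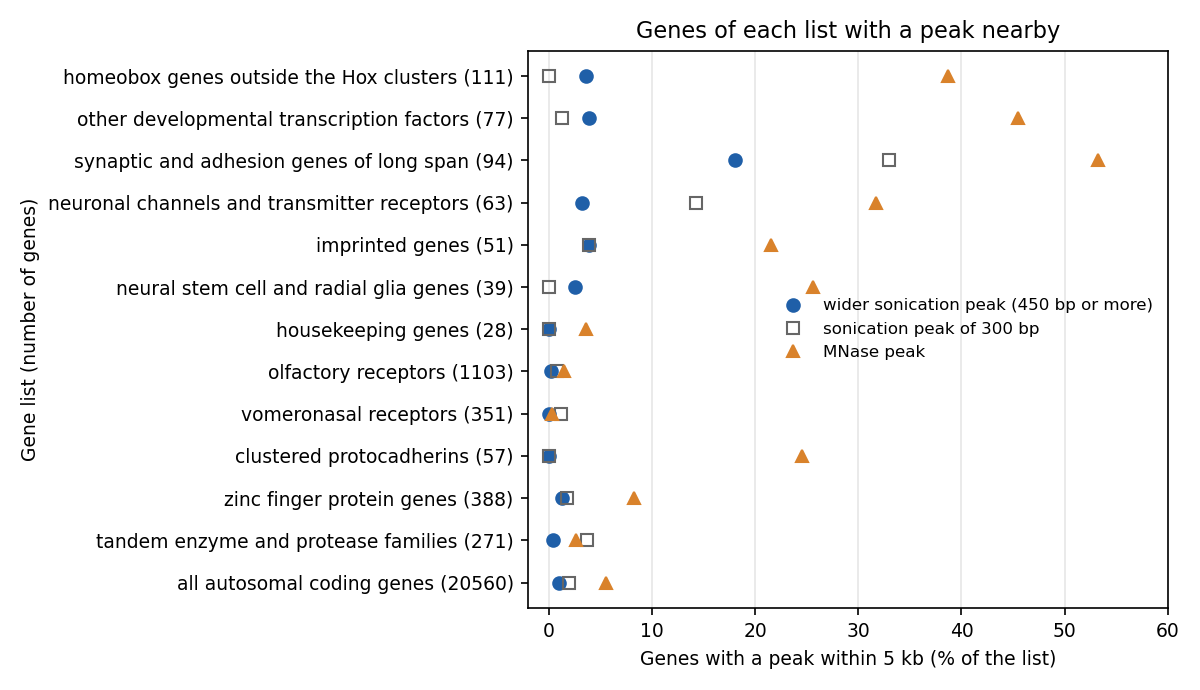
Percent of the genes of each list (lists with their sizes on the vertical axis) that have a peak within 5 kb, for wider sonication peaks (blue circles), 300 bp sonication peaks (open squares) and MNase peaks (orange triangles), with all autosomal coding genes last. Wider peaks reach 18.1% of the long synaptic and adhesion genes, below the 300 bp peaks there, and 3.60% of the homeobox genes, where the 300 bp peaks reach none.

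Few genes had more than 1 wider peak. The 12 with 2 within 5 kb were Adamts3, Csmd1, Ctnnd2, Dock4, Magi2, Pard3b, Pde4d, Ptpn21, Rbm33, Snrpn, Vav3 and Xkr4. Several are long neuronal or signalling genes: Csmd1, a complement-control membrane protein gene, spans 1643 kb, Magi2, a synaptic scaffold gene, 1485 kb, and Pde4d, a cyclic AMP phosphodiesterase gene, 1302 kb. Counted per Mb, these had 1.21, 1.34 and 1.52 wider peaks. Ptpn21, a tyrosine phosphatase gene of only 60.9 kb, had 28.2 per Mb, and Rbm33, an RNA-binding protein gene of 102 kb, had 17.8, both from 2 peaks. The 2 at Ptpn21 were only 450 bp apart. All coding genes together had 0.180 per Mb. The 12 genes were picked for having 2 peaks, so their densities follow from their spans and are no sign of enrichment. Apart from Snrpn and Xkr4, the peaks at these genes were 450 or 600 bp wide.

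The wider peaks were scattered singly over the genome. The nearest other sonication peak of any width was 415 kb away in the median, and 431 kb from a smallest peak. Another peak lay within 100 kb of 76 wider peaks (15.9%, 12.9% to 19.4%) and 206 smallest ones (18.0%, 15.9% to 20.3%), a difference that did not pass Fisher's exact test (odds ratio 0.859, p = 0.315). From 600 bp upward the odds ratio was 1.05, so its direction turned with the width. Besides the Snrpn region, a single stretch chained at least 3 wider peaks within 200 kb of each other: 3 within 152.4 kb on chromosome 18, between 57698551 and 57850950 at Ccdc192 and Gm35751, with no MNase peak. Of the wider peaks, 7 adjoined another peak, among them both at Xkr4.

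The share of wide peaks passed no test for a difference between autosomes. The share of peaks of at least 450 bp was 29.5% over the autosomes outside the Hox clusters, from 20.7% on chromosome 19 (6 of 29) to 37.6% on chromosome 5 (35 of 93). Of the 19 autosomes, 0 passed Fisher's exact test against the others after Benjamini-Hochberg adjustment, the lowest unadjusted p was 0.0799 and 0 had an unadjusted p under 0.05. The wider peaks had a density of 0.199 per Mb. None lay in the 2 autosomal broad domains of the authors' deposited domain list, and none of the smallest peaks did either.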

How the data were processed

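Each experiment's libraries share 1 list of peak positions, deposited by the authors as starts and ends in bp with an empty value column. Per the submitters' processing notes, bcl2fastq, Bowtie 0.12.9 and MACS2 were used with mm10, and per the MNase file's type column SeqMonk wrote that list. The sources used here do not say how controls entered the lists, and a pooled list with 150 bp steps limits widths. The authors' deposited score per broad domain was not used.

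Peaks of 450 bp or more were compared with those of 300 bp by Fisher's exact test (Python 3.11.15, scipy 1.17.1, pandas 2.3.3, numpy 2.4.6, matplotlib 3.10.9), two-sided, with Benjamini-Hochberg adjustment over 4 comparisons at 0.05 and 95% Wilson intervals, which cover counting error only. The code was checked on simulated data. Genes were RefSeq spans (GRCm38.p6, 46714 autosomal records, without 328 in the first 3 Mb of a chromosome). Starts came from a promoter table that lacks chromosome 18 and some coding genes of other autosomes. A distance is edge to edge and 0 for overlap.

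The members and the 12 gene lists were chosen with earlier results of these data known. Named are genes at the 25 widest peaks, genes with 2 or more peaks, genes at the 20 widest shared peaks and up to 4 per list; Cacng2, Lrfn5, Fgf12, Cd300ld and the outermost Nr2f2 site were named after their values were seen. Alternatives were other minimum widths, Hox clusters kept, merged neighbours, midpoints and other distances. Each alternative was adjusted over the same 4 comparisons only, so its adjusted p does not account for the number of alternatives run. Sequences of the peaks themselves were not analysed here.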

Additional observations from a re-analysis of the deposited data

How the results depend on the processing

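The overlap with MNase peaks kept its direction and passed the test under every alternative run except one: with peaks of 450 bp alone, added after seeing the data, the odds ratio was 2.40 (Fisher's exact test, adjusted p = 0.429). It ran up to 221 at a minimum width of 750 bp, and was 16.7 with neighbours merged.

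Overlap with coding genes, which did not pass at 450 bp, passed at a minimum of 600 bp (odds ratio 1.47), at 750 bp (2.91) and with the Hox clusters kept (1.34). Starts within 5 kb behaved likewise at 600 bp (3.03), 750 bp (8.47) and with Hox clusters kept (2.51), and also within 50 kb (1.60). Without peaks at an MNase peak, also added after seeing the data, the odds ratio was 1.05 for starts within 5 kb (Fisher's exact test, adjusted p = 0.879), 1.52 within 50 kb and 1.17 for gene overlap. With 450 bp peaks alone the odds ratio for starts was 0.936. The odds ratio for another peak within 100 kb turned from 0.859 to 1.05 at 600 bp, 1.02 at 750 bp and 1.12 with Hox clusters kept. The cause of these changes was not tested beyond what the width classes show. The 205 coding genes became 80 at 600 bp, 32 at 750 bp and 489 within 50 kb, and the 36 list genes became 16, 10 and 103, since fewer peaks or longer distances were counted. The count of 0 autosomes held under each alternative run.

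No paired analysis was possible because the lists carry no value per library, and for the same reason no library was left out in turn. Merged neighbours were not run for spacing and gene counts. Depth is unknown, so a missing MNase partner does not show absence of binding.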

Other observations

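Of the 300 bp autosomal sonication peaks, the 3 that overlapped an MNase peak lay 3058 bp from Tfap2b, a paralogue of Tfap2a, in the zinc finger gene Zfp993, and 20.0 kb from the imprinted potassium channel gene Kcnk9. Their MNase peaks measured 1500, 450 and 1350 bp. These genes were named after their values were seen.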
